A study of Saccharomyces cerevisiae with 4 samples.

Results

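The 34 yeast genes described here encode the enzymes that carry glucose to pyruvate, pyruvate to ethanol or acetate, and glycolytic carbon to glycerol. They were listed by symbol and found through the gene names of the array's platform, a rule that sets no threshold on measured values, although the list was drawn up with earlier results of these data known. All 34 had a spot, 42 spots in all among the 6956 named spots of 8832 on the array, and 33 were measured on all 4 arrays, among 5137 such genes in total. ACS1 had no value on low copper replicate 1.

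Each of the 4 spotted arrays held total RNA of Saccharomyces cerevisiae lpz8 null cells labelled with Cy5 and total RNA of wild-type (WT) cells labelled with Cy3. The null cells came from high Cu on 2 arrays and from low Cu on the other two, and each pair included an array with a repeat mark. The title of the series names Haa1, a transcription factor of the copper-fist family known for its part in tolerance to acetic acid, and lpz8 was read as HAA1. The copper condition of the WT cells, the copper concentrations, the strain backgrounds and the carbon source are not given in the sources used here. Whether a pair of arrays came from separate cultures is not stated, and p-values therefore cover array-to-array spread that may be purely technical. In RNA of whole cultures, fewer cells of a kind and less RNA per cell cannot be told apart. All arrays had the same dye orientation, so a dye effect of a gene and an effect of the genotype cannot be told apart.

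Values are log2 ratios of null over WT with the median of each array set to 0, and a positive value is a higher level in null cells. HAA1 stood at -6.96 and -4.15 on high copper replicates 1 and 2 and at -7.35 on low copper replicate 2, far below 0 wherever it was measured, and had no value on low copper replicate 1. The number of values ranged from 7254 values on low copper replicate 1 to 8409 on high copper replicate 1. Of the marker genes of laboratory strains, URA3 averaged 1.82 ± 1.19, LYS2 -1.49 ± 0.86 and MET17 0.61 ± 0.50 (SD, n = 4), and their part in the results was not tested. On high copper replicate 1 a run of 528 spots held values that matched the other arrays only 24 spots further on (Spearman correlation 0.567, against -0.014 at the same spot). A spot of PYK2, PDC5, ADH2 and ADH3 lay in that run. Their results are given as deposited and with the run moved back.

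Glycolysis phosphorylates a hexose, splits it into triose phosphates and oxidises these to pyruvate with a net gain of ATP. Baker's yeast sends most pyruvate through pyruvate decarboxylase and alcohol dehydrogenase to ethanol, which regenerates the NAD+ that glycolysis consumes. Some acetaldehyde is oxidised to acetate and activated to acetyl-CoA, and triose phosphate can be reduced to glycerol, which serves redox balance and osmotic protection. Many steps have several isozymes, of which one is used during growth on glucose and another is repressed by glucose or induced by stress.

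Over both copper conditions 4 of the 33 members measured on all arrays rose in null cells, and 2 fell. The glucokinase gene GLK1, the phosphoglycerate mutase gene GPM1, the pyruvate kinase gene CDC19 and the mitochondrial aldehyde dehydrogenase gene ALD4 rose by 1.25-fold to 1.45-fold. The aldehyde dehydrogenase gene ALD5 and the glycerol phosphatase gene GPP2 fell by 1.51-fold and 1.56-fold. The 6 members called are 18.2% of the list, and of all 5137 genes 600 were called (11.7%), 331 higher (6.44%) and 269 lower (5.24%), at an adjusted p of 0.05 in limma. Without centring that split was 181 higher and 225 lower. An unadjusted p under 0.05 was found for 12 members and for 35.6% of all genes. The median of the members' means was 0.10, beside -0.02 over all genes. On all 4 arrays 9 members (27.3%) lay above 0 and 2 (6.06%) below 0, beside 20.0% and 21.6% of all genes.

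**Figure D1:**
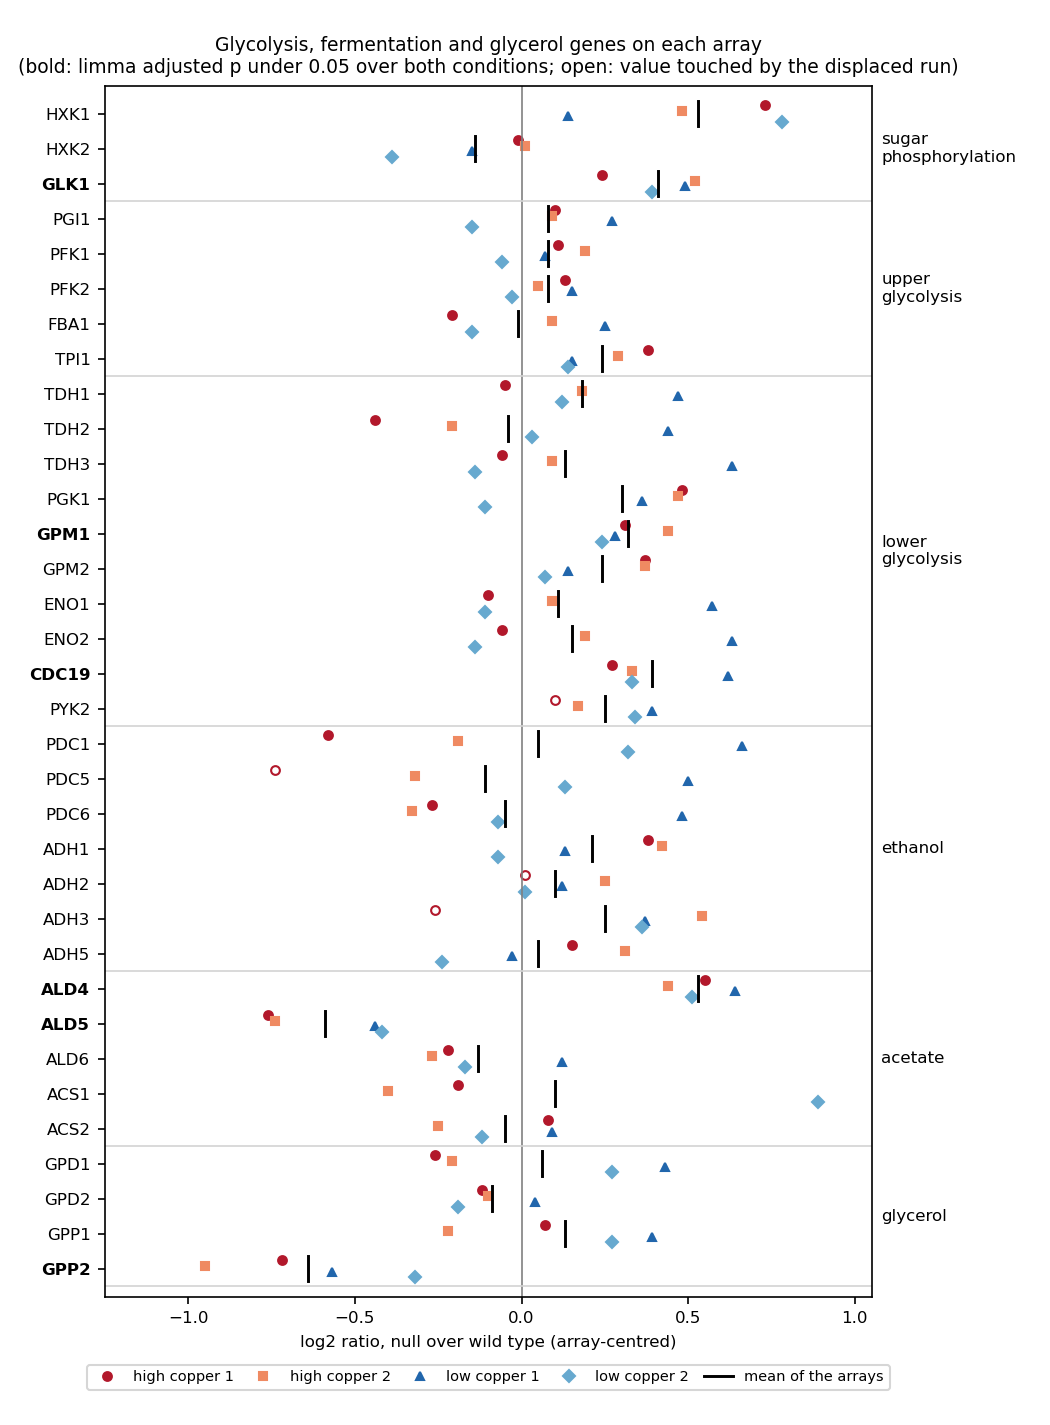
Log2 ratio of null over wild type on each array (horizontal axis) for the 34 genes, grouped by branch from sugar phosphorylation at the top to glycerol at the bottom. Coloured points are the 4 arrays, open points are values touched by the displaced run, black ticks are means over the arrays, and bold names passed the threshold over both conditions. ALD4 lies to the right of 0 and ALD5 and GPP2 to the left of 0 on every array, while the points of PDC1, PDC5, TDH2 and GPD1 fall on both sides of 0 by copper condition.

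These calls depended on which arrays entered the fit. Without high copper replicate 1 or without high copper replicate 2, limma called 0 of the 5137 genes, with 907 and 846 at an unadjusted p under 0.05. Without low copper replicate 2 it called more members and more genes than the fit on all arrays, with 1 array left for low copper. With the repeat arrays as a block 0 members were called among 36 genes, and without centring ALD4, ALD5 and GPP2 were called.

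At the entry of glycolysis the isozymes had unequal ratios. GLK1, whose glucokinase acts on glucose and not on fructose, stood at 0.24 and 0.52 on the high copper arrays and at 0.49 and 0.39 on the low copper arrays. It lay above 0 on each of them, with a mean of 0.41 ± 0.13 (SD, n = 4) and an adjusted p of 0.0441 in limma. The gap between its 2 spots had a median of 0.04 over the arrays and was 0.36 on high copper replicate 1, and its gene overlaps the annotated YCL042W. HXK1, the hexokinase gene that glucose represses, stood at 0.73 and 0.48 in high and at 0.14 and 0.78 in low copper. All 4 values were positive and low copper replicate 1 was the lowest, and the mean of 0.53 ± 0.29 missed the threshold (limma adjusted p = 0.0685). HXK2, the main hexokinase gene on glucose, stood at -0.01 and 0.01 in high and at -0.15 and -0.39 in low copper. Its values were near 0 in high copper and negative in low copper, with a mean of -0.14 and a 95% interval of -0.31 to 0.04.

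Set against each other within an array, HXK1 lay above HXK2 by 0.74 and 0.47 in high copper and by 0.30 and 1.17 in low copper. The mean difference was 0.67 ± 0.38 (SD, n = 4). GLK1 lay above HXK2 by 0.55 ± 0.23, also on all 4 arrays, whereas HXK1 and GLK1 differed by 0.12 ± 0.39 with either sign. With 4 arrays the exact two-sided sign-flip permutation test cannot go below 0.125. That value was reached for both pairs with HXK2, and it became 0.312 after adjustment over the 20 pairs compared. A difference between ratios shows unequal change between genes and says nothing of their levels.

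In upper glycolysis 0 of 5 genes passed the threshold, beside 11.7% of all genes, and TPI1 had the highest mean. PGI1, which interconverts glucose and fructose phosphates, and PFK1 and PFK2, the subunits of phosphofructokinase, each had a mean of 0.08, and their 95% intervals ran from -0.16 to 0.32, from -0.08 to 0.24 and from -0.09 to 0.24. The 2 subunits differed by at most 0.15 on each array, with a mean difference of 0.00 ± 0.10 (SD, n = 4). FBA1, the aldolase gene that makes the triose phosphates, averaged -0.01 ± 0.21. TPI1, which interconverts those triose phosphates, stood at 0.38 and 0.29 in high and at 0.15 and 0.14 in low copper. Both high copper values exceeded both low copper values, its 2 spots differed by at most 0.03, and its mean of 0.24 ± 0.12 missed the threshold (limma adjusted p = 0.0607), with a 95% interval of 0.10 to 0.39. It passed with arrays scaled to equal spread (limma adjusted p = 0.0471), where limma called 894 of the 5137 genes (17.4%). It missed without centring (limma adjusted p = 0.0959), over genes on at least 3 arrays (0.0685) and with the displaced run moved back (0.054). The replicate block and the fit that ignored copper each gave TPI1 a limma adjusted p of 0.104. With an array left out the mean of TPI1 stayed between 0.22 and 0.26.

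In lower glycolysis GPM1 and CDC19 passed the threshold, 20.0% of the 10 genes beside 11.7% of all genes, and no gene fell past it. GPM1, the phosphoglycerate mutase gene, stood at 0.31 and 0.44 in high and at 0.28 and 0.24 in low copper. Its values spanned the narrowest range among the 10 genes of this segment, with a mean of 0.32 ± 0.09 (SD, n = 4) and a limma adjusted p of 0.0443. CDC19, the main pyruvate kinase gene, stood at 0.27 and 0.33 in high and at 0.62 and 0.33 in low copper. Low copper replicate 1 was the highest, and the mean of 0.39 ± 0.16 had a limma adjusted p of 0.0467. GPM1 and CDC19 missed the threshold without centring (limma adjusted p = 0.0637 and 0.0508) and over genes on at least 3 arrays (0.0524 and 0.0557). They also missed it without a copper term (0.0589 and 0.0591) and with the replicate block (0.0865 and 0.085). Both passed with arrays scaled to equal spread (0.0316 and 0.0251) and with the displaced run moved back (0.0388 and 0.0408). PYK2, the pyruvate kinase gene that glucose represses, stood at 0.10 and 0.17 in high and at 0.39 and 0.34 in low copper. Its mean of 0.25 missed the threshold as deposited (limma adjusted p = 0.0587) and passed it at 0.26 with the displaced run moved back (limma adjusted p = 0.0479).

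The other genes of this segment split by how they behaved on low copper replicate 1. TDH3, the main glyceraldehyde phosphate dehydrogenase gene, stood at -0.06 and 0.09 in high and at 0.63 and -0.14 in low copper. ENO2, the main enolase gene on glucose, stood at -0.06 and 0.19 in high and at 0.63 and -0.14 in low copper. ENO1, the enolase gene that glucose represses, stood at -0.10 and 0.09 in high and at 0.57 and -0.11 in low copper. In all of them low copper replicate 1 lay far above the other arrays, which lay on either side of 0. ENO1 and ENO2 differed by 0.10 or less on each array, a mean of -0.04 ± 0.06 (SD, n = 4), although the 2 ENO1 spots lay up to 0.46 apart. TDH1, the isozyme gene tied to stationary phase and stress, averaged 0.18 ± 0.22 and TDH2 -0.04 ± 0.38. TDH1 lay above TDH2 by 0.39 and 0.39 in high copper and by 0.03 and 0.09 in low copper, a mean of 0.22 ± 0.19, with an exact sign-flip permutation p of 0.125 (0.312 adjusted).

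PGK1, the phosphoglycerate kinase gene, stood at 0.48 and 0.47 in high and at 0.36 and -0.11 in low copper. Only low copper replicate 2 was below 0, and the mean was 0.30 ± 0.28 (limma adjusted p = 0.11). Its 2 spots lay 0.55 apart on high copper replicate 1. GPM2, a relative of GPM1 without known mutase function in the cell, stood at 0.37 and 0.37 in high and at 0.14 and 0.07 in low copper. Its mean of 0.24 ± 0.15 missed the threshold (limma adjusted p = 0.0607), and it differed from GPM1 by -0.08 ± 0.10. GPM2 neighbours GPD1 on chromosome IV, and in high copper those neighbours had opposite signs.

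GPM1, GPM2 and PGK1 were higher on both high copper arrays than on low copper replicate 1, and the other 7 genes of lower glycolysis had their highest value on it. The median of the 10 lower glycolysis genes was 0.02 and 0.19 on the high copper arrays and 0.46 and 0.05 on low copper replicates 1 and 2. That of 133 ribosomal protein genes was 0.12 and 0.18 in high and 0.42 and 0.26 in low copper. Both groups of genes had their highest median on low copper replicate 1, as did upper glycolysis, ethanol, acetate and glycerol, but not sugar phosphorylation. That array also lacked the most values, 17.87% of spots against 4.79% to 5.82% on the other arrays. The part of this array in the glycolytic values was not tested beyond the fits that leave it out. Without low copper replicate 1, limma called GLK1, GPM1, CDC19, ALD4, ALD5, GPP2 and HXK1 among 959 genes (18.7%). In that fit TDH3 stood at -0.06, ENO1 at -0.06 and ENO2 at -0.04, and none of them passed.

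**Figure D2:**
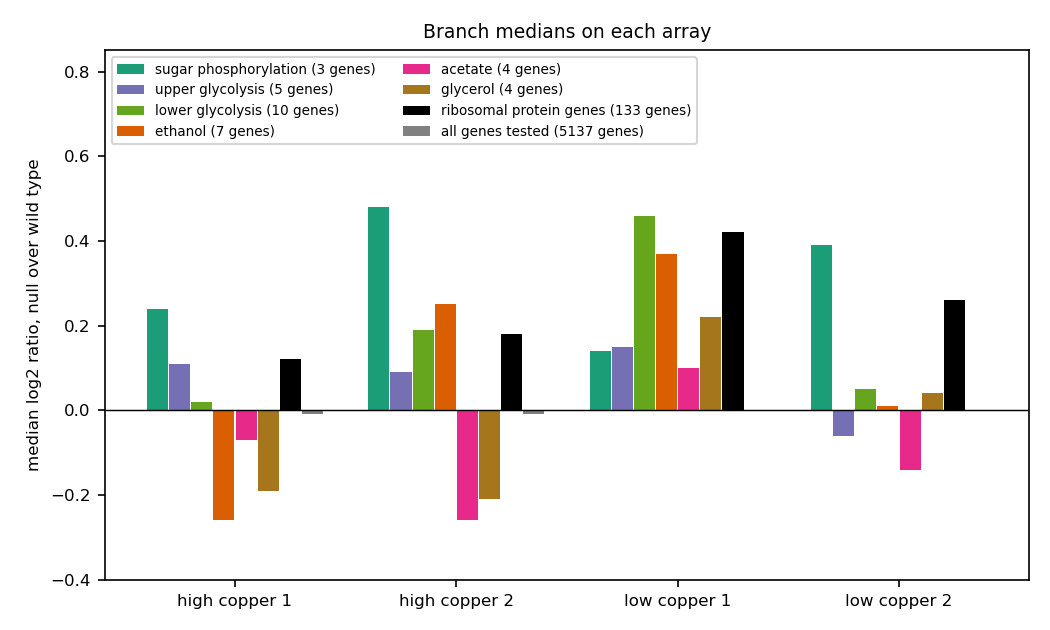
Median log2 ratio of null over wild type (vertical axis) on each array for the 6 branches, for 133 ribosomal protein genes and for all 5137 genes tested. On low copper replicate 1 the lower glycolysis and ribosomal protein bars reach 0.46 and 0.42, while on high copper replicate 1 the glycerol bar lies at -0.19 and the ethanol bar at -0.26 as deposited, which is 0.15 with the displaced run moved back.

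On the way to ethanol 0 of the 7 genes passed the threshold over both conditions, beside 11.7% of all genes. Of the 7, 1 had an unadjusted p under 0.05 in limma, beside 35.6% of all genes. Of the pyruvate decarboxylase genes, PDC1 and PDC5 had opposite signs in the copper conditions, and PDC6 had either sign in low copper. PDC1, the main pyruvate decarboxylase gene, stood at -0.58 and -0.19 in high and at 0.66 and 0.32 in low copper. PDC5, the isozyme gene that is induced when PDC1 is lost, stood at -0.74 and -0.32 in high and at 0.50 and 0.13 in low copper. For both genes every high copper value was negative and every low copper value positive. PDC6, a weakly expressed isozyme gene tied to sulfur limitation, stood at -0.27 and -0.33 in high and at 0.48 and -0.07 in low copper.

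The ratio in high copper minus that in low copper was -0.87 for PDC1 (95% interval -1.43 to -0.32) and -0.85 for PDC5 (-1.44 to -0.26), with limma adjusted p of 0.257 and 0.262. It was -0.50 for PDC6, with 0.366. Without low copper replicate 2, low copper rested on replicate 1 alone, where PDC1 stood at 0.66, PDC5 at 0.50 and PDC6 at 0.48. With all 4 arrays 0 of 5137 genes (0.0%) passed between the copper conditions in limma. An unadjusted p under 0.05 in limma was found for 792 genes (15.4%), 8 of the 33 members among them. With the displaced run moved back PDC5 stood at -0.29 on high copper replicate 1, and its difference was -0.62 with a limma adjusted p of 0.237. PDC5 lay below PDC1 by 0.14 to 0.19 on each array as deposited, and by 0.05 ± 0.23 (SD, n = 4) with the run moved back. The coding sequences of these isozymes are closely related, and hybridisation of 1 transcript to the other's spot was not measured. The same holds for the TDH, ENO, HXK, ADH and GPP pairs.

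Of the 4 alcohol dehydrogenase genes on the list, 0 passed between the copper conditions. ADH1, the main enzyme that reduces acetaldehyde to ethanol, stood at 0.38 and 0.42 in high and at 0.13 and -0.07 in low copper. Both high copper values exceeded both low copper values, the mean was 0.21 ± 0.23 (SD, n = 4; limma adjusted p = 0.091), and the difference between conditions was 0.37 (limma adjusted p = 0.302). ADH5, a minor isozyme gene, stood at 0.15 and 0.31 in high and at -0.03 and -0.24 in low copper, and its difference was also 0.37 (limma adjusted p = 0.322). ADH5 lay below ADH1 by 0.10 to 0.22 on every array. ADH2, the glucose-repressed gene whose enzyme oxidises ethanol, averaged 0.10 ± 0.12 as deposited and 0.20 ± 0.17 with the run moved back.

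ADH3, the mitochondrial isozyme gene, showed what the displaced run could do to a member. As deposited it stood at -0.26 and 0.54 in high and at 0.37 and 0.36 in low copper, with a mean of 0.25 ± 0.35 (SD, n = 4) and a limma adjusted p of 0.278. With the run moved back its value on high copper replicate 1 was 0.47, its mean 0.43 ± 0.09, and it passed the threshold with a limma adjusted p of 0.0223. In that fit 751 genes (14.6%) were called, 8 members among them, the 6 given above with ADH3 and PYK2.

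The aldehyde dehydrogenase genes of the acetate branch had ratios of opposite sign. ALD4, the mitochondrial enzyme gene used in growth on ethanol, stood at 0.55 and 0.44 in high and at 0.64 and 0.51 in low copper. All values were well above 0 and the conditions overlapped, with a mean of 0.53 ± 0.08 (SD, n = 4), 1.45-fold higher in null cells, and a limma adjusted p of 0.0252. ALD5, another mitochondrial isozyme gene, stood at -0.76 and -0.74 in high and at -0.44 and -0.42 in low copper. All values were below 0, and both high copper values were below both low copper values. The mean was -0.59 ± 0.18, 1.51-fold lower in null cells, with a limma adjusted p of 0.0185, the lowest among the members.

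ALD5 neighbours VTC1 on chromosome V, a polyphosphate polymerase subunit gene whose ratio averaged 1.27 ± 0.26 (SD, n = 4), opposite in sign. ALD6, the main cytosolic enzyme gene for acetate, stood at -0.22 and -0.27 in high and at 0.12 and -0.17 in low copper. Its mean of -0.13 had a 95% interval of -0.33 to 0.06. Within an array ALD4 lay above ALD6 by 0.77 and 0.71 in high and by 0.52 and 0.67 in low copper, a mean of 0.67 ± 0.11 (SD, n = 4). ALD5 lay below ALD6 by 0.25 to 0.56, a mean difference of -0.46 ± 0.14. Both pairs kept their sign on all 4 arrays and reached the smallest exact sign-flip permutation p of 0.125 (0.312 adjusted).

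Acetyl-CoA synthetase genes did not pass. ACS1, the isozyme gene that glucose represses, stood at -0.19 and -0.40 in high copper and at 0.89 on the single low copper array that measured it. In the limma fit that admits genes with 1 missing array, its difference between high and low copper was -1.18 with an adjusted p of 0.283. ACS2, the isozyme gene used on glucose, stood at 0.08 and -0.25 in high and at 0.09 and -0.12 in low copper, with a mean of -0.05 and a 95% interval of -0.28 to 0.18.

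In the glycerol branch GPP2 was the gene that fell. GPP2, the glycerol phosphatase gene induced by osmotic stress, stood at -0.72 and -0.95 in high and at -0.57 and -0.32 in low copper. Every value was below 0 and both high copper values were below both low copper values, with a mean of -0.64 ± 0.27 (SD, n = 4), 1.56-fold lower in null cells, and a limma adjusted p of 0.0267. GPP1, its close relative, stood at 0.07 and -0.22 in high and at 0.39 and 0.27 in low copper. Its mean was 0.13 ± 0.26. GPP2 lay below GPP1 by 0.79 and 0.74 in high and by 0.96 and 0.59 in low copper. This mean difference of -0.77 ± 0.15 was the largest among the 20 pairs and held on all 4 arrays (exact sign-flip permutation p = 0.125, 0.312 adjusted).

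**Figure D3:**
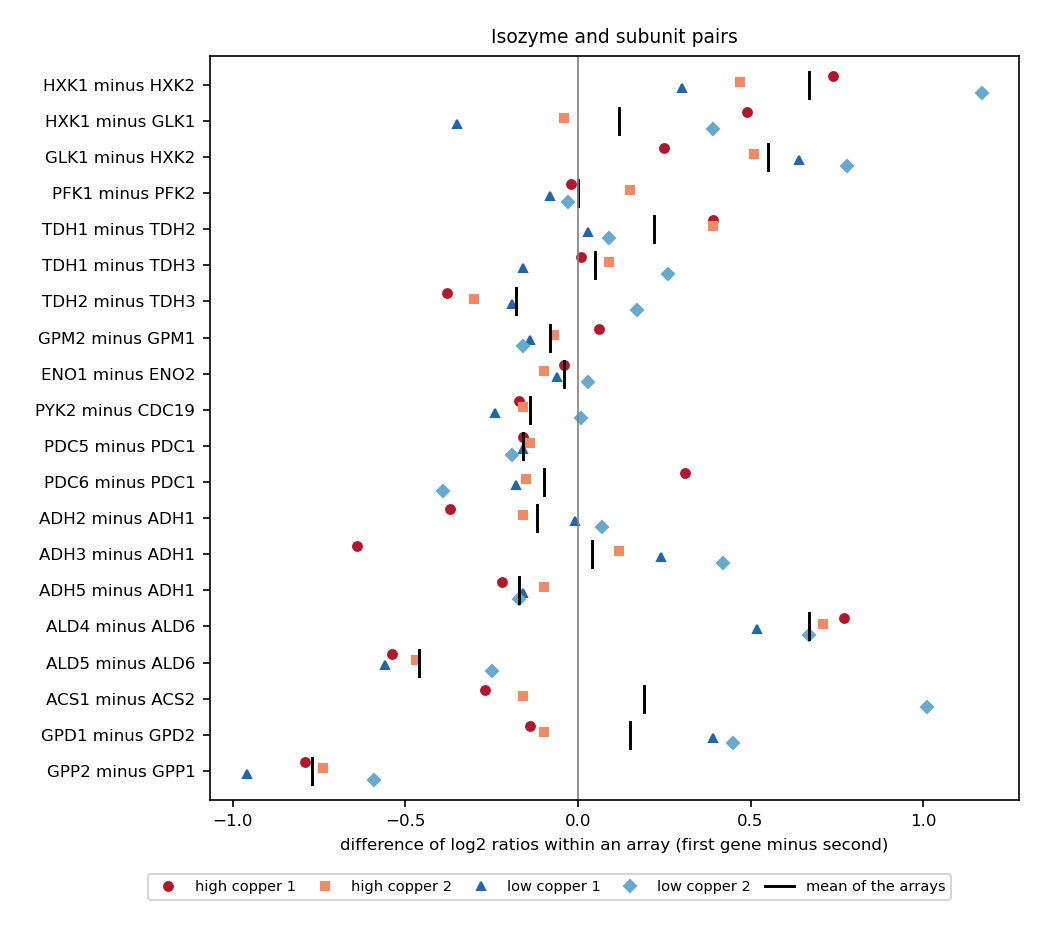
Difference of log2 ratios within an array (horizontal axis), the gene named at the left of each pair minus its partner, for 20 isozyme or subunit pairs. Coloured points are the 4 arrays and black ticks their means. All points of GPP2 minus GPP1 and ALD5 minus ALD6 lie left of 0, all points of ALD4 minus ALD6, HXK1 minus HXK2 and GLK1 minus HXK2 lie right of 0, and ENO1 minus ENO2 stays within 0.10 of 0.

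GPD1, the glycerol phosphate dehydrogenase gene induced by osmotic stress, stood at -0.26 and -0.21 in high and at 0.43 and 0.27 in low copper. Its high copper values were negative and its low copper values positive, and its 2 spots differed by at most 0.09. The difference between high and low copper was -0.58, with a 95% interval of -0.91 to -0.26. In limma its unadjusted p was 0.00696 and its adjusted p 0.256. GPD2, the isozyme gene used without oxygen, averaged -0.09 ± 0.10 (SD, n = 4), and its difference between conditions was -0.04 with an interval of -0.39 to 0.31. GPD1 lay below GPD2 by 0.14 and 0.10 in high copper and above it by 0.39 and 0.45 in low copper.

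Within a single condition few members passed. In high copper ALD5 (-0.75) and GPP2 (-0.84) fell, with limma adjusted p of 0.0304 and 0.0493, and 0 members rose. With the displaced run moved back ADH3 (0.50) also passed there, with a limma adjusted p of 0.0485, among 201 genes called (3.9%). As deposited, ALD5 and GPP2 are 6.06% of the members, and 132 of all genes were called there (2.57%), 55 higher (1.07%) and 77 lower (1.5%). An unadjusted p under 0.05 in limma was found there for 13 members and for 24.6% of all genes. In low copper 0 members passed and 11 had an unadjusted p under 0.05 in limma, beside 34 genes called (0.662%) and 1569 with an unadjusted p under 0.05 (30.5%). Fitted on the high copper pair alone, limma called 10 members, 7 higher and 3 lower, among 898 genes (17.5%), 395 higher and 503 lower. ADH1, ALD4, GPM1, GPM2, HXK1, PGK1 and TPI1 were the higher ones, and ALD5, GPP2 and PDC5 the lower ones. Fitted on the low copper pair alone, limma called 0 genes, with 942 at an unadjusted p under 0.05.

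Between the conditions both high copper values lay below both low copper values for 11 members (33.3%), beside 27.0% of all genes, and above them for 8 (24.2%), beside 25.2%. Values above 0 on both low copper arrays and below 0 on both high copper arrays were seen for TDH2, PDC1, PDC5 and GPD1, 4 of 33 members (12.1%), beside 7.88% of all genes. The opposite was seen for ADH5 (3.03%), beside 7.03%. These shares lie near those of all genes.

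**Figure D4:**
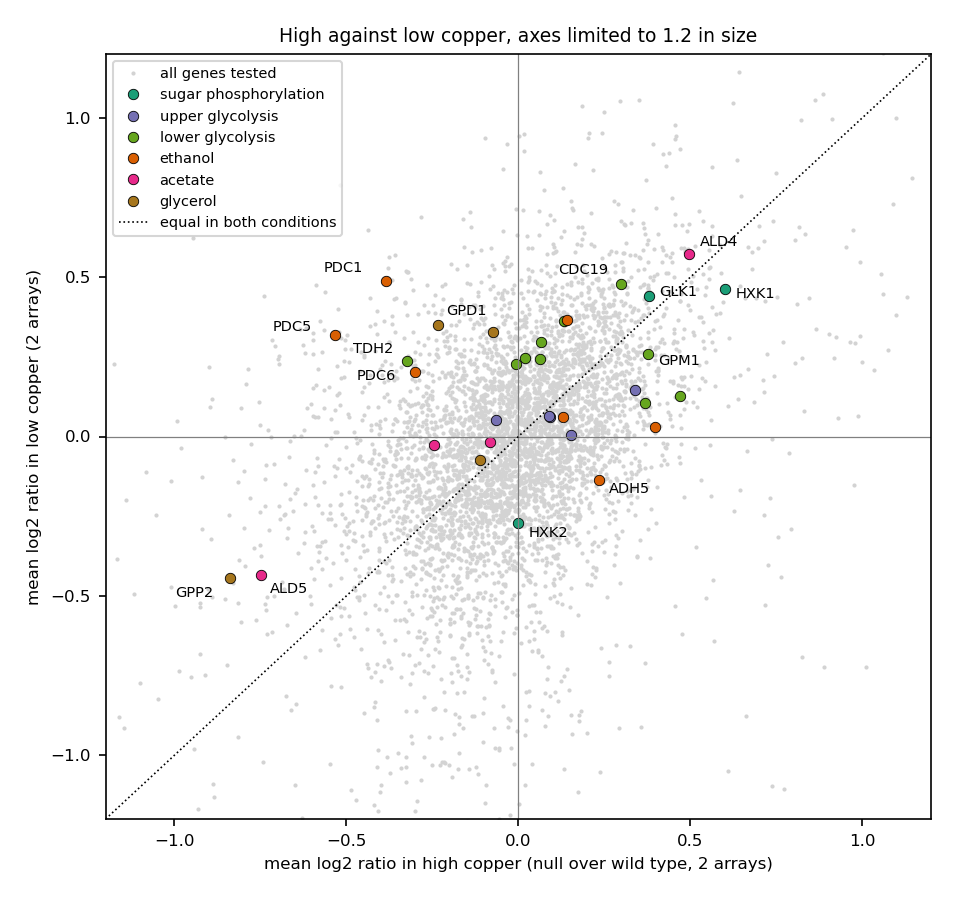
Mean log2 ratio of null over wild type in high copper (horizontal axis) against that in low copper (vertical axis), with axes limited to 1.2 in size, for all genes tested (grey) and for the members coloured by branch. PDC1, PDC5, PDC6, TDH2 and GPD1 lie in the upper left, negative in high and positive in low copper, whereas ALD4 lies near the dotted line of equal ratios and ALD5 and GPP2 lie in the lower left.

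Of 38 related genes of these pathways, chosen for paralogs, regulators and neighbouring reactions, 34 had a spot measured on all arrays. Over both conditions 3 of these fell in null cells and 0 rose (8.82%, beside 11.7% of all genes called, 5.24% lower). Their median was -0.19, beside -0.02 over all genes. PFK27, which makes the activator of phosphofructokinase, fructose 2,6-bisphosphate, stood at -0.85 and -1.12 in high and at -0.72 and -0.75 in low copper. Its mean was -0.86 ± 0.18 (SD, n = 4), 1.82-fold lower in null cells, with a limma adjusted p of 0.0159. MIG1, the repressor of genes not needed on glucose, stood at -0.83 and -1.0 in high and at -0.44 and -0.14 in low copper. All values were negative and the conditions did not overlap, with a mean of -0.60 ± 0.39 and a limma adjusted p of 0.0287.

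ALD3, a cytosolic aldehyde dehydrogenase gene induced by stress, averaged -0.34 ± 0.15 (SD, n = 4; limma adjusted p = 0.0483). TYE7, an activator of glycolytic genes, averaged -0.37 ± 0.20 and the pyruvate carboxylase gene PYC2 -0.23 ± 0.07, and both missed the threshold with limma adjusted p of 0.0623 and 0.0642. The alcohol dehydrogenase gene ADH4 stood at 0.19 and -0.03 in high and at 0.65 and 0.42 in low copper, with a mean of 0.31 ± 0.29 (limma adjusted p = 0.0684). Its difference between high and low copper was -0.46 (limma adjusted p = 0.295). Within high copper PFK27 and MIG1 were the 2 related genes called (5.88%, beside 2.57% of all genes). ADR1, the activator of ADH2, was measured on 3 arrays, at -0.54 and -0.80 in high and at -0.88 in low copper, and passed in limma over genes with 3 or 4 arrays (adjusted p = 0.0475). In that fit 469 of 5538 genes (8.47%) were called over both conditions, and ADR1 had only 1 low copper array. ADR1 was named after its values were seen.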

How the data were processed

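The authors deposited a log ratio for each measured spot of the 4 two-colour arrays, and their normalization and log base are not given in the sources used here. Those deposited values were read as log2 ratios. After the best constant for an array, 27 to 39 of its values beyond 2.9 in size matched log2 of whole ratios to 0.0011, where the median over constants was 1 to 3. For natural logs these counts were 20 to 36 and 8 to 17. The base therefore remains an inference. The direction, Cy5 over Cy3, was taken from the dyes per the labels. Intensities and backgrounds were not used, so signal over background is not known here and precision rests on the 4 arrays.

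The median over the spots measured on every array was subtracted from each array, and spots of a gene were averaged. limma 3.58.1 in R 4.3.3 (lmFit, eBayes) fitted a mean per copper condition to 5137 genes, with 2 residual and 2.22 prior degrees of freedom. The p-values were adjusted by Benjamini-Hochberg over all genes, with a threshold of 0.05. Isozyme differences were tested by exact sign flips. Gene names came from the platform annotation and the RefSeq table of assembly R64. The displaced run was located by comparing every array with the mean of the others at a range of shifts. The array, shift and run that gained most in closeness to the others were taken, and the ends were moved to multiples of the shift. The correlation after the shift is therefore not independent of that choice. Every member was accounted for. Of the related genes, those past the threshold and the 6 with the smallest p were named. The alternatives were no centring, equal spread, at least 3 arrays, separate spots, the run moved back, arrays left out, a replicate block, no copper term and a condition alone. The members and lists were chosen with earlier results of these data known.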

Additional observations from a re-analysis of the deposited data

Results flagged for a closer look

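Members whose 2 high copper values had the opposite sign to their 2 low copper values were looked at again. The ratio in high copper minus that in low copper was -0.87 for PDC1, -0.85 for PDC5, -0.56 for TDH2, -0.58 for GPD1 and 0.37 for ADH5. None of these 5 differences passed in limma, with adjusted p of 0.257, 0.262, 0.305, 0.256 and 0.322. Without low copper replicate 2, low copper was replicate 1 alone, where PDC1 stood at 0.66, PDC5 at 0.50, TDH2 at 0.44 and GPD1 at 0.43. The spread in that fit came from the high copper pair alone, so its calls are not given for single genes. Over the other alternatives the limma adjusted p of these 4 genes ran from 0.165 to 0.874. Such sign patterns were found for 7.88% and 7.03% of all genes in the 2 directions.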

How the results depend on the processing

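The number of members called over both conditions, 6 in the fit reported, was 3 without centring, 3 over genes on at least 3 arrays, 0 with the repeat arrays as a replicate block and 0 to 16 with an array left out. In low copper it was 0, and 0 to 11 with an array left out. In high copper it was 2, and 1 without centring, 1 over genes on at least 3 arrays, 1 with separate spots, 0 with the replicate block, 10 from the condition alone and 0 to 10 with an array left out. Between conditions it was 0, and 0 to 6 with an array left out. For related genes it was 3, and 5 with arrays scaled to equal spread, 0 with the replicate block, 1 without a copper term and 0 to 14 with an array left out. Of 20 isozyme pairs 8 kept 1 sign on all arrays, and 8 did with the displaced run moved back. These were not the same pairs, since PDC5 with PDC1 dropped out and ADH3 with ADH1 came in. Of all single genes 20.0% lay above 0 and 21.6% below 0 on all 4 arrays, and the share for pairs of other genes was not measured. With an array left out 9 to 13 pairs kept 1 sign, a count that could not fall because fewer arrays had to share a sign. The median over all members stayed between 0.04 and 0.16. Where 1 array was omitted, the spread came from the other condition's pair, and the lone array was assumed to vary like it. The labels give only a repeat mark, and the deviations of arrays that share it correlated at 0.087 across genes. No member or related gene past the threshold changed sign under these alternatives. With equal spread 894 genes were called over both conditions and without centring 406 were (181 higher and 225 lower). The count over all genes, 600, was 292 without a copper term, 36 with the replicate block and 0 to 1940 with an array left out. In high copper, 132 became 363 with equal spread, 201 with the run moved back, 0 with the block and 0 to 898 with an array left out. In low copper, 34 became 19 without centring, 61 with equal spread, 63 with the run moved back, 0 with the block and 0 to 1438 with an array left out. Between conditions, 0 became 2 with the run moved back and 0 to 743 with an array left out.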
